A study of Mus musculus with 3 samples.

Results

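The genes described here are 49 interferon-stimulated genes of the mouse, covering antiviral effectors, nucleic acid sensors and regulators of the response. They were chosen by symbol from a list that leaves out the MHC, Ly6 and Ifi200 families. All 49 were found among the 23238 gene symbols of the count files. Of these members, 36 reached a CPM (the count scaled to library size) of at least 1 somewhere and were compared between substrates, as were 13169 of all symbols. The other 13 members stayed under that limit in every library and are given mostly by their counts, which are not scaled to the size of the libraries.

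The RNA came from c2c12, an immortalized mouse myoblast line whose cells fuse to myotubes once serum is lowered. The cells spent 2 days in myogenic induction medium with 2% horse serum on a tissue culture plate (TCP), on a hydrogel of 15% methacrylated gelatin (GelMA), or on the same 15% gelatin mixed with 1% poly sodium 4-styrenesulfonate (GelMA-PSS). PSS is a sulfonated polymer that imitates the negative charge of heparin, and the comparisons ask how it changed the transcriptome relative to the plate and to the plain gel. Each substrate has 1 library, from 1 cell line, so no difference below has a replicate check and no test was possible. The 3 libraries share the line, the medium and the day, and none was treated with interferon, so whether these genes respond to interferon in these cells was not tested.

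Counts summed to 119799095 in the TCP library, 87071144 in the GelMA library and 192171443 in the GelMA-PSS library. Levels between libraries are given as CPM after TMM scaling, and differences as log2 ratios of CPM + 1, a scale that understates the change of weakly expressed genes. Intervals are 95% Wilson intervals and cover counting error only. If mates were counted separately they are too narrow, and whether that was done is not known. Levels of different genes are compared as TPM, which also divides the counts by transcript length.

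The libraries carried the markers of differentiating muscle cells. Desmin (Des) had a CPM of 3299 on TCP, 2863 on GelMA and 3154 on GelMA-PSS, and all 9 markers of myoblasts and myotubes passed the CPM limit, with Acta1 the most abundant by TPM. Myh3, the embryonic myosin of young myotubes, had 10182, 6355 and 3037 and was lowest on GelMA-PSS. Myf5, a factor of undifferentiated myoblasts, went the other way, with 13.9, 19.5 and 36.5 and a log2 ratio of 1.33 for GelMA-PSS against TCP. Both were picked after their values were seen. Over the whole list 3 markers were higher on GelMA-PSS than on both controls and 3 were lower, so the markers did not move together. Their medians on the log2 scale were 0.14 relative to GelMA and -0.09 relative to TCP. Correcting for transcript length and GC content, as described below, took these to -0.11 and -0.35. Acta1, Ckm, Myh3, Myog and Tnnt3 were then below TCP and GelMA alike, while Myf5, Myod1 and Cdh15 stayed above. Markers of immune cells were close to 0. Of 8 macrophage and monocyte markers 3 passed the limit, with a summed CPM of 4.98, 6.24 and 5.88 in the same order and Cd14 the most abundant. The 7 lymphocyte and natural killer markers summed to 0.131, 0.231 and 0.110, with Ncr1 and Nkg7 at 0 counts and Cd4 the most abundant. The 5 dendritic cell markers summed to 1.86, 1.11 and 1.12, led by Zbtb46. The 5 endothelial markers, led by Vwf, summed to 2.44, 3.96 and 2.56. The 4 adipocyte markers, led by Adipoq and with Lep at 0 counts, summed to at most 0.0985.

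Interferons are secreted when a cell senses foreign or misplaced nucleic acid, and most nucleated cells, muscle cells included, carry receptors for them. Type I interferon activates the kinases Jak1 and Tyk2, and a complex with Stat2 and Irf9 then binds the interferon-stimulated response element (ISRE), while the response to interferon gamma uses the gamma-activated sequence (GAS). The induced proteins block entry of viruses, degrade or modify RNA, stall translation and feed back on the pathway.

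On the scale of CPM + 1 and before any correction, the members that differed most between GelMA-PSS and TCP were Ifitm1, Ifitm2 and Ifitm3, short membrane proteins that restrict the entry of enveloped viruses. All 3 were highest on GelMA-PSS, intermediate on GelMA and lowest on TCP. On this scale Ifitm1 was the only member past 2-fold against both controls, and its plain CPM was 5.79-fold that on TCP and 2.30-fold that on GelMA. By plain CPM the weakly expressed Isg15 and Ifit1 were also past 2-fold against both. After a correction for transcript length and GC content, described below, only Ifitm1 against TCP remained past 2-fold on GelMA-PSS. The 13 members under the CPM limit, among them Oas1a, Mx1, Rsad2, Usp18 and Cmpk2, had few counts on all 3 substrates, while others such as Ifit2 and Bst2 were well above it. On the scale of CPM + 1, 0 of the other 33 compared members passed 2-fold in any comparison. Their log2 ratios on GelMA-PSS ran from -0.56 to 0.80 relative to GelMA and from -0.49 to 0.94 relative to TCP. By plain CPM, Isg15, Oasl2, Herc6, Gbp2 and Bst2 were more than 2-fold higher on GelMA-PSS than on TCP, and Mx2 more than 2-fold lower. Oasl2 was also past 2-fold on GelMA against TCP by plain CPM.

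Against GelMA, 1 of the 36 compared members was higher on GelMA-PSS by more than 2-fold (Ifitm1), where 1.77% of all compared genes were, and 0 were lower, where 2.33% were. Against TCP, 3 members were higher (Ifitm1, Ifitm2 and Ifitm3) beside 3.72% of all genes, and 0 were lower beside 3.13%. The length and GC correction ended the call against GelMA and those of Ifitm2 and Ifitm3 against TCP. On the scale of CPM + 1 the counts past 2-fold rest on this single family. Against GelMA the share of members, 2.78%, is 1 gene. Between the control substrates, 1 member was higher on GelMA than on TCP (Ifitm1) beside 0.706% of all genes, and 0 were lower beside 0.296%. Past 2-fold against both controls there was 1 member higher, Ifitm1, beside 1.37%, and 0 lower, beside 1.16%. The comparisons with TCP and with GelMA use the same GelMA-PSS library and are not independent.

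Smaller differences leaned upward. The median log2 ratio of the 36 members on GelMA-PSS was 0.25 relative to GelMA and 0.29 relative to TCP, and between GelMA and TCP it was 0.08. The same medians over all compared genes were 0.03, 0.04 and -0.01. The lean depends on the settings, as the members' medians on GelMA-PSS fell to 0.10 and 0.19 with the length and GC correction. With library totals alone they were 0.11 and 0.18, and those of all genes were -0.10 and -0.06. Counting any size, 23 of the 36 members were higher on GelMA-PSS than on both controls (45.3% of all genes) and 6 were lower (39.3%). With the length and GC correction 24 were higher (40.2%) and 7 lower (40.7%), and with library totals alone 19 (35.4%) and 9 (49.4%). Of all 49 members, 30 were higher and 9 lower, beside 40.9% and 38.4% of the 18170 genes with at least 3 counts in a library. The order GelMA-PSS above GelMA above TCP held for 16 of the 36, and for 22.5% of all genes. Isg15 passed the CPM limit only through the GelMA-PSS library and so had to differ, and these counts over the passing members are a description. Without Ifitm1, Ifitm2 and Ifitm3 the medians of the remaining 33 members were 0.14, 0.25 and 0.04. Because the RNA came from whole cultures, fewer cells expressing a gene and less RNA per cell cannot be told apart.

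**Figure D1:**
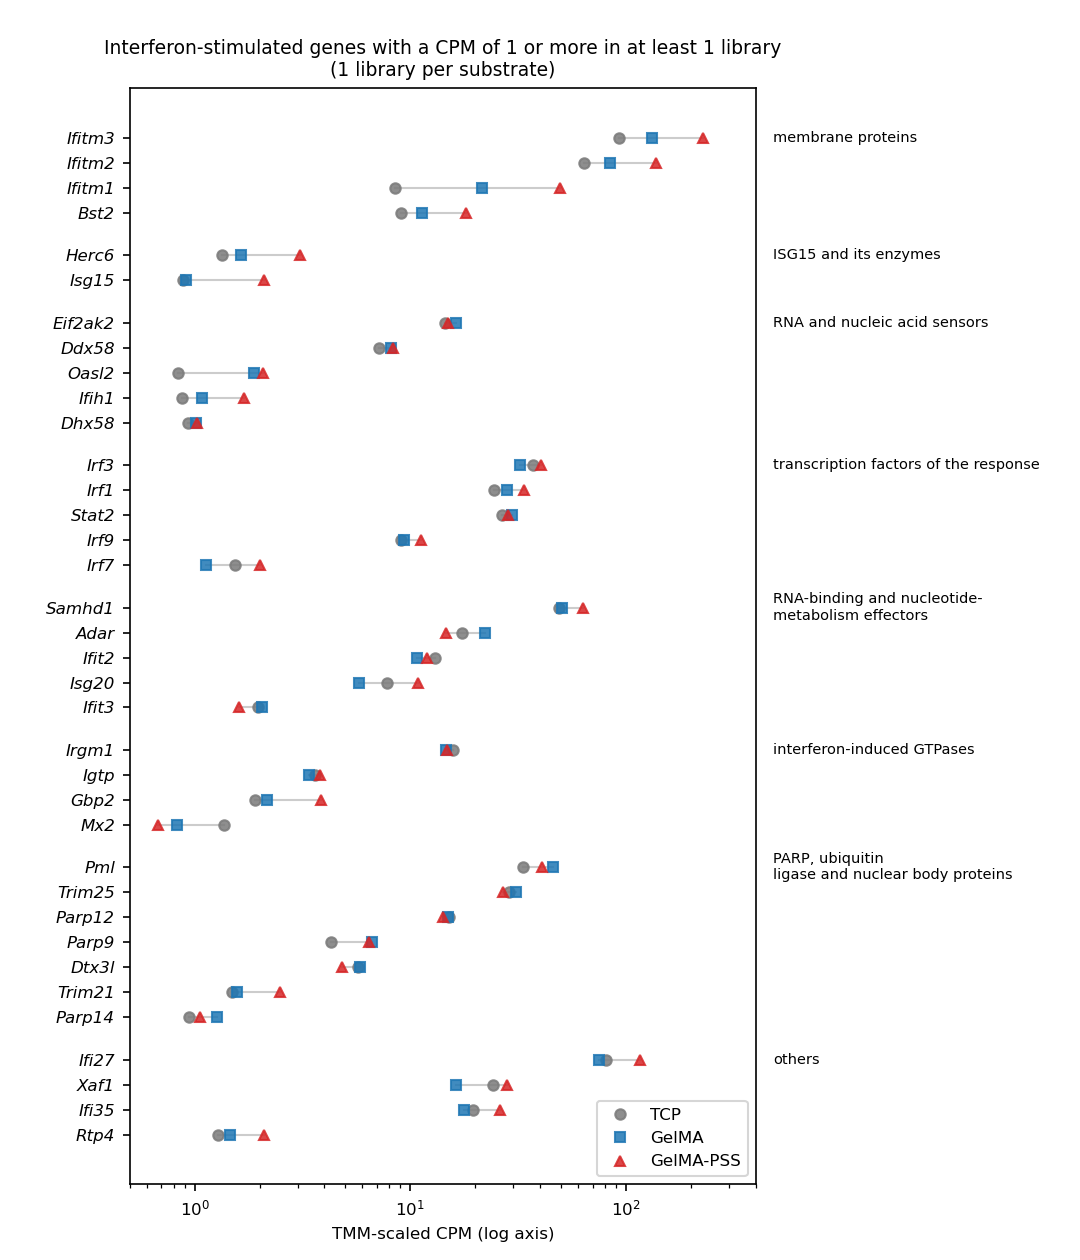
CPM (log axis) of the 36 compared interferon-stimulated genes on TCP, GelMA and GelMA-PSS, 1 library per substrate, 1 point per gene and library. Ifitm1 is spread widest, from 8.52 on TCP to 49.3 on GelMA-PSS, while most other members have their 3 points close together.

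The ligands of the pathway were almost silent. Of 21 interferon genes, 15 had 0 counts in all 3 libraries, among them Ifnb1, and 18 were at or under the floor of 3 counts in each library. Those 3 counts correspond to a CPM of 0.0246 on TCP, 0.0330 on GelMA and 0.0166 on GelMA-PSS. Ifnz, annotated as interferon zeta, was the only ligand above the CPM limit, at 1.14, 1.53 and 2.50 in the same order. Its log2 ratios on GelMA-PSS were 0.47 relative to GelMA and 0.71 relative to TCP. Ifng, the gene of interferon gamma, had 19, 12 and 23 counts.

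The receptors and their kinases were expressed on every substrate. Of 11 genes for receptor chains, JAK kinases and STAT factors, 10 passed the CPM limit, and 0 passed 2-fold in any comparison. Ifnar1, a chain of the type I receptor, had a CPM of 49.8 on TCP, 60.3 on GelMA and 60.1 on GelMA-PSS. Jak1 had 126, 147 and 144. Both were slightly higher on the gels than on the plate, and nearly equal between the gels. Other chains were higher on GelMA-PSS than on GelMA, among them, picked after their values were seen, Ifnar2 at 21.2, 26.0 and 33.9, with log2 ratios on GelMA-PSS of 0.37 and 0.65, and Il10rb, of the lambda receptor, with 0.68 and 0.81. Stat3, a factor shared with cytokine receptors, had 219, 207 and 165. Ifnlr1, the specific chain of the lambda receptor, stayed under the limit with 22, 18 and 22 counts. The median log2 ratio of the 10 genes was -0.02 relative to GelMA and 0.23 relative to TCP, and after the length and GC correction it was 0.16 and 0.30. For Stat3 the ratio to GelMA went from -0.33 to 0.09.

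Upstream adaptors and kinases went both ways. Of the 20 such genes found, 14 passed the limit, with medians of 0.05 and 0.04 and 0 past 2-fold, and the ratios ran from -0.73 to 0.39 relative to GelMA and from -0.62 to 0.69 relative to TCP. The length and GC correction turned the medians to -0.10 and -0.08. Tbk1, the kinase that phosphorylates Irf3, had a CPM of 59.7 on TCP, 53.6 on GelMA and 47.6 on GelMA-PSS. Traf3, an adaptor of that kinase, had 48.6, 52.8 and 31.4, and its log2 ratio to GelMA went from -0.73 to -0.19 with the correction. Tank, a scaffold of the same complex, had 41.7, 35.5 and 47.0. Among 17 negative regulators and nucleic acid clearance genes 16 passed the limit, 0 past 2-fold, with medians of -0.04 and 0.26, or 0.08 and 0.15 after the correction. The phosphatase gene Ptpn11 was the most abundant of these by CPM, at 225 on TCP, 229.9 on GelMA and 169 on GelMA-PSS. Cyld, which encodes a deubiquitinase, had 65.1, 61.0 and 54.6. Tnfaip3, a brake on inflammatory signaling, had 29.6, 37.6 and 37.7 and was thus higher on both gels.

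Of the members, 10 encode sensors of RNA and other nucleic acids, and 5 of them passed the CPM limit. Their median log2 ratio on GelMA-PSS was 0.03 relative to GelMA and 0.19 relative to TCP. The cytosolic RNA helicase gene Ddx58 (RIG-I) had a CPM of 7.16 on TCP, 8.11 on GelMA and 8.29 on GelMA-PSS. Eif2ak2, the kinase PKR that stalls translation on double-stranded RNA, had 14.4, 16.3 and 15.0. Neither moved by more than 0.19 on the log2 scale in any comparison. Ifih1 (MDA5), a sensor of long double-stranded RNA, had 0.879 on TCP, 1.08 on GelMA and 1.70 on GelMA-PSS, with overlapping intervals on the controls. Dhx58 (LGP2), which tunes both helicases, stayed at 0.928, 1.01 and 1.02.

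The oligoadenylate synthetase genes, whose products activate RNase L, were low throughout. Oasl2, a synthetase-like gene and the only one of them above the limit, had a CPM of 0.838 on TCP, 1.89 on GelMA and 2.07 on GelMA-PSS, so that it was higher on both gels. Its log2 ratio was 0.74 for GelMA-PSS against TCP and 0.65 for GelMA against TCP, the largest GelMA value of a member outside the Ifitm family. Oas1a had 0 counts on TCP, 8 on GelMA and 24 on GelMA-PSS. Oasl1 had 1, 16 and 42 counts, and Oas3 had 13, 28 and 47. Their CPM was at most 0.308 on every substrate, a value reached by Oas3 on GelMA. Oas2, with 1, 0 and 3 counts, was not above the floor in any library. Oas1a, Oas2 and Oas3 are similar neighbours on chromosome 5, so reads may have been split among them. Zbp1, a sensor of Z-form nucleic acid, had 70, 42 and 124 counts.

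All 5 transcription factors of the response passed the limit, and none passed 2-fold. The largest log2 ratio of the group was 0.50, for Irf7 on GelMA-PSS against GelMA. Irf1, a factor induced by interferon gamma, had a CPM of 24.3 on TCP, 28.1 on GelMA and 33.7 on GelMA-PSS. Its level followed the substrate order, and the log2 ratio on GelMA-PSS was 0.25 relative to GelMA and 0.45 relative to TCP. Irf3, which is present before infection and starts interferon transcription, had 37.1, 32.2 and 40.2. Irf7, the inducible amplifier of interferon alpha, had 1.54, 1.13 and 2.01. Both were lowest on the plain gel, with log2 ratios on GelMA-PSS of 0.31 and 0.50 against GelMA. For Irf9, the DNA-binding subunit of the type I complex, the CPM was 9.03, 9.34 and 11.2. For its partner Stat2 it was 26.6, 29.5 and 28.2. The log2 ratio of Stat2 was -0.06 relative to GelMA and 0.08 relative to TCP, and that of Irf9 was 0.24 and 0.28, with the same substrate order as Irf1. The length and GC correction turned Stat2 against GelMA to 0.12, and Irf3 against TCP from 0.11 to -0.006. It lowered the ratios to GelMA of Irf1 to 0.06 and of Irf3 to 0.15. Irf1, Irf7 and Irf9 on GelMA-PSS kept their direction with it. Library totals alone took Stat2 against TCP to -0.02.

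Isg15, a ubiquitin-like protein that is joined to others in the response, had a CPM of 0.887 on TCP, 0.913 on GelMA and 2.09 on GelMA-PSS. Its intervals on the controls overlapped, from 0.735 to 1.07 and from 0.737 to 1.13, and the interval on GelMA-PSS ran from 1.89 to 2.31. Herc6, the ligase that attaches Isg15 in the mouse, had 1.35, 1.64 and 3.08. Its log2 ratio on GelMA-PSS, 0.63 relative to GelMA and 0.80 relative to TCP, was little changed by the length correction described below, at 0.70 and 0.85. For Isg15 the ratios were 0.69 and 0.71, and the same correction lowered them to 0.09 and 0.18. Usp18, which removes Isg15 and dampens the receptor, had 9, 2 and 22 counts. These members were thus weakly transcribed in every library. Their highest values were on GelMA-PSS, but for Isg15 little of that difference was left after the correction.

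The enzymes around this system outside the members included Ube2l6, which carries Isg15 to its ligases. Its CPM was 26.2 on TCP, 33.0 on GelMA and 66.4 on GelMA-PSS. It was chosen after its values were seen. On the scale of CPM + 1 it was past 2-fold higher against TCP. Of 34 compared interferon-induced genes outside the members it was the only 1, beside 3.72% of all genes. Over these 34 genes, of 63 found, the median log2 ratio was 0.00 relative to GelMA and 0.35 relative to TCP. Against both controls 0 were past 2-fold higher, beside 1.37% of all genes, and 0 lower, beside 1.16%. The most abundant of them by CPM were B2m, the light chain of MHC class I, with 408, 324 and 619.6, and Tor3a, with 103, 81.9 and 67.5. Znfx1, a helicase-like RNA sensor, had 69.4, 73.9 and 51.6. With the length and GC correction the log2 ratios of B2m to GelMA and TCP went from 0.93 and 0.60 to 0.20 and -0.01. Those of Znfx1 went from -0.51 and -0.42 to 0.09 and 0.03. Tor3a stayed lower, at -0.29 and -0.61, and Ube2l6 had 0.61 and 1.02.

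Proteins that bind RNA or act on nucleotides account for 8 members, 5 of them above the limit. Their median log2 ratio was 0.14 relative to GelMA and -0.12 relative to TCP, and after the length and GC correction 0.10 and 0.07, so the direction against TCP is not stable. Samhd1, which degrades deoxynucleotides and so starves reverse transcription, had a CPM of 48.7 on TCP, 50.3 on GelMA and 63.2 on GelMA-PSS. It was higher on GelMA-PSS by 0.32 and 0.37 on the log2 scale, and the controls were nearly equal. The exonuclease gene Isg20 had 7.80, 5.80 and 10.8, and Adar, which edits adenosine to inosine in double-stranded RNA, had 17.3, 22.1 and 14.7. These were the extremes of all members outside the Ifitm family against GelMA, with log2 ratios of 0.80 and -0.56. After the length correction they were 0.37 and -0.14, and the extremes were then Herc6 at 0.70 and Ifit3 at -0.58.

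The Ifit genes encode proteins that hold on to viral RNA with unusual ends. Ifit2 had a CPM of 13.0 on TCP, 10.7 on GelMA and 11.9 on GelMA-PSS, and Ifit3 had 1.97, 2.05 and 1.61. Ifit1 stayed under the limit with 29, 40 and 164 counts. Neither of the compared genes was high on GelMA-PSS, whereas Ifit1 was highest there, at a CPM of 0.905 with an interval from 0.777 to 1.05, against 0.238 and 0.440. The Ifit genes are similar neighbours on chromosome 19, and reads may have been split among them. Rsad2 (viperin), which makes a chain-terminating nucleotide, had 22, 44 and 56 counts, with its highest CPM, 0.484, on GelMA. Cmpk2, its neighbour and the kinase that supplies its substrate, had 14, 6 and 2.

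The 4 membrane proteins of the list, Bst2, Ifitm1, Ifitm2 and Ifitm3, were the role group with the highest median ratios before the correction. Their median log2 ratio on GelMA-PSS was 0.74 relative to GelMA and 1.19 relative to TCP, and on GelMA it was 0.45 against TCP. All 4 followed the order GelMA-PSS above GelMA above TCP. After the correction the medians on GelMA-PSS were 0.12 and 0.64. Relative to GelMA the group was then no longer the highest, with 0.15 for the transcription factors and 0.40 for Isg15 and its enzymes. The latter value rests on 2 compared genes, of which Isg15 passed the CPM limit only through the GelMA-PSS library.

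Ifitm1 lies at chr7:140967221-140969825 on the plus strand of GRCm38. It had a CPM of 8.52 on TCP (95% interval from 8.01 to 9.05), 21.4 on GelMA (20.5 to 22.4) and 49.3 on GelMA-PSS (48.3 to 50.3), from 1037, 1948 and 8929 counts. The intervals of the 3 libraries are well apart, so the differences exceed the counting error. The log2 ratios were 1.16 and 2.40 for GelMA-PSS against GelMA and TCP, and 1.24 for GelMA against TCP, with counting errors of 0.03, 0.04 and 0.05. Ranked from the highest ratio, Ifitm1 was at place 22 of 13169 genes for GelMA-PSS against TCP, at 45 for GelMA against TCP and at 103 for GelMA-PSS against GelMA.

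Ifitm3 lies at chr7:141009586-141010770 and Ifitm2 at chr7:140954837-140955987, both on the minus strand. Ifitm3 had a CPM of 92.9 on TCP (91.2 to 94.6), 132 on GelMA (129 to 134) and 227 on GelMA-PSS (225 to 229.6). Ifitm2 had 64.1 (62.7 to 65.5), 84.5 (82.6 to 86.4) and 138 (137 to 140.0). Both stepped up from plate to gel and again to the gel with PSS, with no overlap of the intervals. For Ifitm3 the log2 ratios were 0.78 relative to GelMA and 1.28 relative to TCP, and for Ifitm2 they were 0.70 and 1.10. The plain gel lay 0.50 and 0.39 above the plate.

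Bst2 (tetherin), which holds budding virus at the cell surface, had a CPM of 9.03 on TCP, 11.3 on GelMA and 18.2 on GelMA-PSS. Its plain CPM ratio to TCP was 2.01, but on the scale of CPM + 1 the log2 ratio was 0.94, just inside the threshold, and 0.64 against GelMA. Ifitm2, at 1.10, was the called member nearest to the threshold from above.

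The Ifitm genes also dominate the transcripts of the list. Per length, Ifitm3 had a TPM of 289 on TCP, 426 on GelMA and 531 on GelMA-PSS, the highest of the members in each library, and Ifitm2 was second with 207, 283 and 334. Ifi27, a small mitochondrial protein, followed with 174, 168 and 189. Together these genes held 67.8%, 70.5% and 74.0% of the members' summed TPM. With Ifitm1, Irf3, Bst2, Ifi35 and Samhd1, the 8 most abundant by mean TPM held 82.0%, 84.7% and 88.9%. The summed TPM of all 49 members was 988 on TCP, 1243 on GelMA and 1424 on GelMA-PSS. Of this, Ifitm1, Ifitm2 and Ifitm3 gave 516, 762 and 954, whereas the 46 other members summed to 472, 481 and 469.7. In CPM, the unit used between libraries, these 46 summed to 463, 475 and 565 and were thus higher on GelMA-PSS. A summed TPM also moves with the relation to transcript length described below.

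The genes around the Ifitm cluster were examined after these values had been seen. Within 100000 bases on either side, 12 genes outside the family are listed and 7 were compared. Their median log2 ratio was 0.30 relative to GelMA and 0.22 relative to TCP on GelMA-PSS, and -0.03 between the controls. Only Sigirr, a receptor that restrains interleukin signaling, was past 2-fold, at 1.17 against TCP. The family member Ifitm6 had a CPM of 0.493 on TCP, 0.473 on GelMA and 1.08 on GelMA-PSS, the only library in which it passed the limit, and its corrected log2 ratios were -0.18 and -0.10. Ifitm5, a gene of bone-forming cells, had 10, 9 and 13 counts. The rise from plate to gel in Ifitm1, Ifitm2 and Ifitm3 was thus not shared by most neighbours. These genes are paralogs with similar sequences, and reads may have been split among them by the authors' counting.

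The ratios on GelMA-PSS followed transcript length, and the Ifitm transcripts are short. Ifitm1, Ifitm2 and Ifitm3 have 882, 655 and 678 bases, Bst2 has 792, Isg15 has 756 and Ifi27 has 977, and these 6 are the members under 1000 bases. Over the 889 compared genes under 1000 bases the median log2 ratio was 0.62 relative to GelMA and 0.56 relative to TCP, and -0.04 for GelMA against TCP. For the 6 members the medians were 0.70, 1.02 and 0.35. By these medians the short members were close to other short genes against GelMA, and above them against TCP and between the controls. Single members differed. Ifitm1, at 1.16, lay well above the median of the short genes against GelMA. Ifi27 lay below it against TCP, at 0.52, and between the controls, at -0.11.

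Across the 36 members, Spearman's rho between log2 ratio and length was -0.66 for GelMA-PSS against GelMA, -0.45 for GelMA-PSS against TCP and 0.16 between the controls. Across the 13050 compared genes with a known length it was -0.67, -0.52 and 0.21. Genes are not independent of each other, and rho is given as a description. After loess fits for length and GC content were subtracted, the median of the members was 0.10 relative to GelMA, 0.19 relative to TCP and 0.09 between the controls. No member then passed 2-fold against GelMA, and Ifitm1 alone did against TCP. With 1 library per substrate, a dependence on length within a library and a difference between substrates cannot be told apart.

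The correction lowered the ratios of Ifitm1, Ifitm2 and Ifitm3 on GelMA-PSS by similar amounts, so more was left for Ifitm1, which had started highest. The corrected log2 ratio of Ifitm1 was 0.57 relative to GelMA and 1.90 relative to TCP, the latter at place 32 of 13050. For Ifitm2 the corrected values were 0.10 and 0.56, and for Ifitm3 they were 0.14 and 0.72. The excess over GelMA thus nearly vanished for Ifitm2 and Ifitm3, while part of the excess over TCP remained for all 3. Between GelMA and TCP, where length mattered less, the corrected ratios were 1.29, 0.43 and 0.54 for Ifitm1, Ifitm2 and Ifitm3, close to the uncorrected ones. Bst2 went to 0.09 and 0.46, Isg15 to 0.09 and 0.18, and Ifi27 to 0.10 and 0.07.

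**Figure D2:**
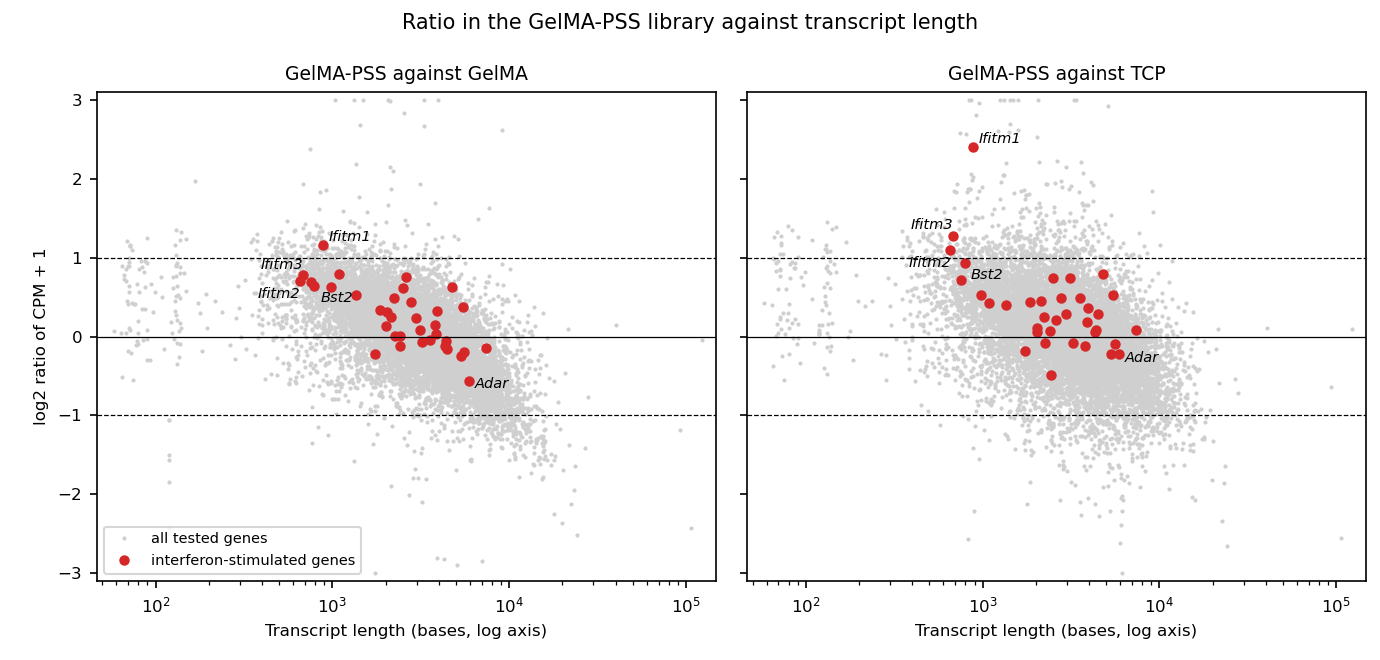
Log2 ratio of CPM + 1 on GelMA-PSS against GelMA (left) and TCP (right) by transcript length in bases (log axis), for 13050 compared genes (grey) and 36 interferon-stimulated genes (red), with ratios beyond the axis drawn at its edge and dashed lines at 2-fold. Ifitm1 at 2.40 stands above most short genes against TCP, and the red points fall with length as the grey ones do.

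The interferon-induced GTPases of the list were low and mixed. Of 6 genes 4 passed the limit, with median log2 ratios of 0.07 relative to GelMA and -0.02 relative to TCP, or -0.19 and -0.22 after the correction. Irgm1, which acts on membranes around intracellular pathogens, had a CPM of 15.7 on TCP, 14.6 on GelMA and 14.7 on GelMA-PSS. Igtp, a related GTPase that adjoins Irgm2, had 3.63, 3.39 and 3.81. These are the most abundant of the group by TPM, and before the correction they were level across substrates. With it the log2 ratios on GelMA-PSS relative to GelMA and TCP were -0.25 and -0.29 for Irgm1. For Igtp they were -0.13 and -0.14. Gbp2, a guanylate-binding protein that coats pathogen membranes, had 1.90, 2.16 and 3.84. Mx2, a dynamin-like GTPase active against vesicular stomatitis virus, ran the other way, with 1.36, 0.825 and 0.679 and a log2 ratio of -0.49 against TCP, the lowest of the members in that comparison. It passed the CPM limit only through the TCP library and so had to be lower on the gels. Mx1 had 31, 14 and 31 counts, and Gbp3 had 38, 37 and 118. Reads may also have been split among the Gbp and Irgm families.

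ADP-ribosyltransferases, ubiquitin ligases and nuclear body proteins make up 8 members, 7 of them above the limit. Their median log2 ratio was -0.14 relative to GelMA and 0.08 relative to TCP, and their transcripts are long, with a median of 4481 bases. The length and GC correction brought these medians to 0.09 and 0.36. Pml, the scaffold of nuclear bodies, had a CPM of 33.2 on TCP, 45.7 on GelMA and 40.7 on GelMA-PSS. Parp9, of the ADP-ribosyltransferase family, had 4.30, 6.65 and 6.42, again higher on both gels than on the plate. Its partner ligase Dtx3l had 5.75, 5.87 and 4.80, and the adjacent Parp9 and Dtx3l overlap at their starts on opposite strands. Of the same enzyme family, Parp12 had 15.1, 15.0 and 14.2, and Parp14 had 0.944, 1.27 and 1.05. Trim25, the ligase that activates RIG-I, had 28.7, 30.9 and 26.8. Trim21, an intracellular receptor for antibodies, had 1.49, 1.57 and 2.50 and was higher on GelMA-PSS than on both controls, as were Parp14, Trim25 and Pml only after the correction. Sp100, another nuclear body protein, had 24, 24 and 25 counts.

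The remaining members were Ifi27, Ifi35, Ifi44, Rtp4 and Xaf1, and the 4 that passed the limit were all higher on GelMA-PSS than on both controls. Their median log2 ratios, 0.58 relative to GelMA and 0.42 relative to TCP, fell to 0.13 and 0.08 with the length and GC correction. Ifi35 then had 0.16 and 0.09, Rtp4 had 0.02 and 0.20, and Ifi27 had 0.10 and 0.07. Xaf1 kept 0.58 relative to GelMA and had 0.08 relative to TCP. Ifi27 had a CPM of 80.7 on TCP, 74.7 on GelMA and 116 on GelMA-PSS, with log2 ratios of 0.63 relative to GelMA and 0.52 relative to TCP. Ifi35, a leucine zipper protein of the innate response, had 19.5, 17.7 and 26.1. Xaf1, a proapoptotic zinc finger protein, had 24.1, 16.3 and 28.2. In these genes the plain gel was the lowest of the 3 substrates, unlike the Ifitm genes. For Xaf1 the log2 ratio was 0.75 against GelMA but 0.21 against TCP, and its GelMA ratio to TCP, -0.54, was the lowest of the members. Rtp4, a receptor chaperone, had 1.29, 1.46 and 2.10, and Ifi44, an antiproliferative protein under the limit, had a CPM of 0.542, 0.627 and 0.425.

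Promoter windows of RefSeq, from 250 bases before to 50 after each start on GRCm38.p6, were matched by symbol for 39 members. They were searched on both strands for an ISRE core, written as TTTC, 2 free bases and TTTC again, and for the GAS letters TTCNNNGAA. Matches may overlap each other. An ISRE core was found in 18 of the 39 members (46.2%) and in 3.99% of the 27025 genes of the table. The GAS letters were found in 11 members (28.2%) and in 9.55% of genes. The windows of the list are thus richer in both motifs than the table as a whole, and a match is no sign of activity in these cells. Oas2, Dhx58, Usp18, Parp9, Parp14, Mx1, Mx2, Rtp4, Ifi27 and Zbp1 were not matched.

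The 13 compared members with an ISRE core had median log2 ratios of 0.38 relative to GelMA and 0.49 relative to TCP. The 17 without had 0.25 and 0.28. The set with a core includes Isg15, which passed the CPM limit only through the GelMA-PSS library. Once length and GC content were corrected for, the middle value against GelMA was 0.09 (Isg15) with a core. Without a core it was 0.15 (Irf3), so this order turned. Against TCP the middle values were 0.22 (Stat2) with a core and 0.15 (Trim25) without. Another 5 members with a core and 4 without were under the CPM limit. Ifitm2 has a core before its start and Ifitm3 has 2 after it, while these letters are not in the window of Ifitm1. That window, chr7:140967826-140968125, lies inside the gene as annotated by GENCODE, and the bases before the GENCODE start were not searched. Members with a core thus ranged from Ifitm2 and Bst2, higher on GelMA-PSS, to Oas1a, Oas3 and Rsad2, with few counts anywhere. Stretches of 60 bases are printed for the members with a core before the start whose mean log2 ratio against the controls was highest, to show how the element sits in genes with high and low levels. They lie at chr7:140955973-140956032 (minus strand) for Ifitm2, chr8:71537568-71537627 (minus) for Bst2, chr4:156200862-156200921 (minus) for Isg15, chr3:142620579-142620638 (plus) for Gbp2 and chr19:34640760-34640819 (plus) for Ifit1. Each is written 5′ to 3′ on the strand of its gene, and capitals mark the ISRE matches, which in Bst2 and Isg15 run into each other. The stretch of Bst2 also holds a GAS match, which is not marked.
Ifitm2: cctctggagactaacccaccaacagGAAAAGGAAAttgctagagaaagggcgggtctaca
Bst2: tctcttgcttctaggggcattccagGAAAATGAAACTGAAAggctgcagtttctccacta
Isg15: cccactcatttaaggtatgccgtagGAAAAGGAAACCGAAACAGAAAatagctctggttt
Gbp2: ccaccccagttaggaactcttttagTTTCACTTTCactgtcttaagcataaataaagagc
Ifit1: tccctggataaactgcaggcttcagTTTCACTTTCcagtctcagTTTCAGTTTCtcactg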

How the data were processed

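Raw counts by symbol, deposited by the authors, were read for 3 libraries. The kit is SMARTER in the labels and TruSeq in the methods, with paired-end reads of 101 bp. The submitters' processing notes name TopHat, edgeR, mm10 and hg19 without a role. Lines sharing a symbol (35 symbols) were summed. TMM factors (edgeR 4.0.16, R 4.3.3) were 1.02 (TCP), 1.04 (GelMA) and 0.943 (GelMA-PSS), and CPM replaced the FPKM of the study. A gene reaching a CPM of 1 somewhere was compared on log2(CPM + 1), and more than 2-fold was called, with no p-value. Lengths and positions came from GENCODE vM21 (GRCm38), for all 49 members and 13050 compared genes, and the length and GC correction was done by loess (statsmodels 0.14.6, Python 3.11.15; span 0.3, 2 successive fits). Wilson intervals came from scipy 1.17.1. Full values were given for members past 2-fold in any comparison, the 8 highest by mean TPM and the transcription factors, and for up to 3 genes of each pathway list by mean CPM. Other genes were named after their values were seen. The members and lists were chosen with earlier results of these data known. Ifi16 and Rnf213 were not analysed here. The code was tested on simulated data. Alternatives covered the fold, the pseudocount, the filter, the scaling and the correction.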

Additional observations from a re-analysis of the deposited data

How the results depend on the processing

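The counts of members past the threshold and the medians were recomputed under 7 alternatives. With a 1.5-fold threshold, 10 members were higher on GelMA-PSS than on GelMA (11.0% of all genes), 8 than on TCP (13.2%) and 7 than on both (8.08%), and 2 were higher on GelMA than on TCP (3.50%). A pseudocount of 0.25 CPM gave 2 members against GelMA (2.51%), 6 against TCP (4.94%) and 2 against both (1.79%). The length and GC correction left 0 against GelMA (0.690%), 1 against TCP (1.99%) and 0 against both (0.452%), and lowered the median against GelMA to 0.10. With no filter beyond 3 counts, which brings in all 49 members, the medians were 0.13 against GelMA and 0.19 against TCP. Library totals alone, without TMM factors, gave 0.11 and 0.18, and Ifitm2 then fell inside 2-fold against TCP, at 0.99. They also moved the median of all genes from 0.03 to -0.10 against GelMA, so relative to all genes the members moved little. Genes past 2-fold against GelMA then split into 0.912% higher and 3.84% lower, and 19 members were higher (35.4%) and 9 lower (49.4%) than both controls at any size. Median-of-ratios factors and a mean CPM of 5 or more left the counts past 2-fold unchanged, and the latter kept 23 members, with 13 higher (47.0%) and 4 lower (38.6%) than both controls. Ifitm1, Ifitm2 and Ifitm3 kept their direction in each comparison under the 4 alternatives that can alter the ratio of a gene. The cause of these shifts was not tested, apart from the added genes without a filter. With 1 library per substrate and 1 day, differences between cultures of the same substrate were not measured. Under-limit members rest on at most 164 counts.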

Other observations

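Among interferon-induced genes outside the list, the guanylate-binding genes of chromosome 5 were higher on plain GelMA than on the plate. On GelMA-PSS they were above the plate too, but for Gbp9 only slightly, with overlapping intervals. Gbp6 had a CPM of 0.140 on TCP, 1.46 on GelMA and 0.894 on GelMA-PSS, and Gbp10 had 0.181, 1.12 and 0.784. Gbp8 had 4, 40 and 44 counts, Gbp4 had 2, 11 and 20, and Gbp9 had 40, 84 and 67. For Gbp9 these counts are a CPM of 0.328, 0.924 and 0.370. All 5 had their highest CPM on plain GelMA. On chromosome 3, Gbp5 had 0.739, 1.36 and 0.177, with a log2 ratio of -1.01 on GelMA-PSS relative to GelMA. On the scale of CPM + 1 and before the correction, no other compared gene of the pathway lists was more than 2-fold lower in that comparison. By plain CPM, and after the correction, Sp110 was also past 2-fold lower there. Gbp5, Gbp6 and Gbp10 passed the CPM limit only through the GelMA library, so that their being lower on the other substrates was partly set by that limit. These genes are close paralogs, and reads may have been split among them. Cxcl10, a chemokine gene induced by interferon gamma, also had more counts on the gels, with 6 on TCP, 40 on GelMA and 51 on GelMA-PSS, and its highest CPM was on GelMA. They were chosen after their values were seen.

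Sp110 and Sp140, neighbours of Sp100 on chromosome 1 that encode nuclear body proteins, were lowest on GelMA-PSS. Sp140 had a CPM of 11.5 on TCP, 9.93 on GelMA and 5.87 on GelMA-PSS, and Sp110 had 2.11, 2.48 and 1.06. Their log2 ratios on GelMA-PSS were -0.67 and -0.75 against GelMA, and -0.86 and -0.59 against TCP, none past 2-fold. After the length and GC correction they were -0.87 and -1.04, and -1.02 and -0.81.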
